A study of Mus musculus with 4 samples.

Results

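The genes described here encode the machinery that copies DNA in S phase. They comprise 43 named genes of the 37310 in the count tables, chosen by symbol, and each symbol matched 1 row. They were set out in 10 functional groups, from origin licensing to the assembly of chromatin on new DNA. Their transcripts were counted in sorted natural killer (NK) cells of mouse bone marrow, a cytotoxic lymphocyte of the innate immune system. CD3e-NK1.1+CD49b+ cells were gated and sorted from C57BL/6 mice aged 6 to 8 weeks, and full-length cDNA libraries were made by Smart-seq2. The groups were 2 libraries of littermate controls (Ctrl, with no further genotype in the labels) and 2 libraries of Gabpb1l-/-Gabpb2-/- mice (dKO), described as biological replicates. The dKO mice lack the long form of Gabpb1 and all of Gabpb2, subunits through which the Ets-family factor GABP forms a tetramer on DNA. The labels name no tissue restriction of these alleles, so other cells of the marrow may carry them too.

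Replication starts when the origin recognition complex, Cdc6 and Cdt1 load the ring-shaped MCM helicase onto DNA. In S phase, the kinase Cdc7 with its partner Dbf4 and the cyclin E-dependent kinase help convert the ring into an active helicase that also holds Cdc45 and the GINS complex. Primase with polymerase alpha lays down primers, replication factor C (RFC) loads the sliding clamp PCNA, and polymerases epsilon and delta extend the strands. Most of these genes are transcribed in waves by E2F factors as cells enter S phase. Immature NK cells in the marrow divide, whereas mature NK cells are mostly quiescent, so sorted marrow NK cells can hold both cycling and resting cells. Which cells the S-phase transcripts came from was not measured.

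Counts assigned to genes summed to between 30233870 and 34724516 per library. As a check of the labels, Gabpb2 had 1244 and 1009 counts in Ctrl 1 and Ctrl 2, and 85 and 86 counts in dKO 1 and dKO 2. Gabpb1 had 1945, 1727, 2609 and 2400 counts in the same order, and a count over the whole gene checks nothing about its long form. Xist had 6066 and 6430 counts in the Ctrl libraries against 2 and 9 in the dKO libraries, and the Y-linked gene Ddx3y had 0 counts in both Ctrl libraries against 8933 and 6757. Sex-linked transcripts thus differed with genotype, and the effects of sex and genotype cannot be told apart. All 11 fixed NK cell markers were detected in every library, with summed levels of 17946 and 17878 CPM in the controls against 14778 and 14842 in the dKO libraries. CPM (the count scaled to the library size) compares a gene between libraries.

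The replication genes were lower in dKO than in Ctrl in most cases, but none passed the threshold over all genes. All 43 members met the count filter, and 40 had a negative log2 fold change (dKO minus Ctrl), with a median of -0.48 and a range from -1.71 (Cdc6) to 1.25 (Pcna). Over all 13904 genes tested the median was 0.01, and 48.4% were negative. Of the 43, 0 were called at an adjusted p under 0.05 in edgeR's quasi-likelihood test, against a background of 0.611% of all genes tested. At an unadjusted p under 0.05, 20 members were lower and 1 was higher, where the background was 5.34% lower and 5.24% higher. In 30 members both dKO libraries lay below both Ctrl libraries, against 19.9% of all genes tested. The reverse held for 1 member (Pcna), against 21.7% of all genes, and the groups overlapped in the other 12. In a bulk sample, fewer cycling cells and less RNA per cycling cell cannot be told apart. The part of other dividing marrow cells, whose markers are given below, was not tested, and sex differed with genotype.

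**Figure D1:**
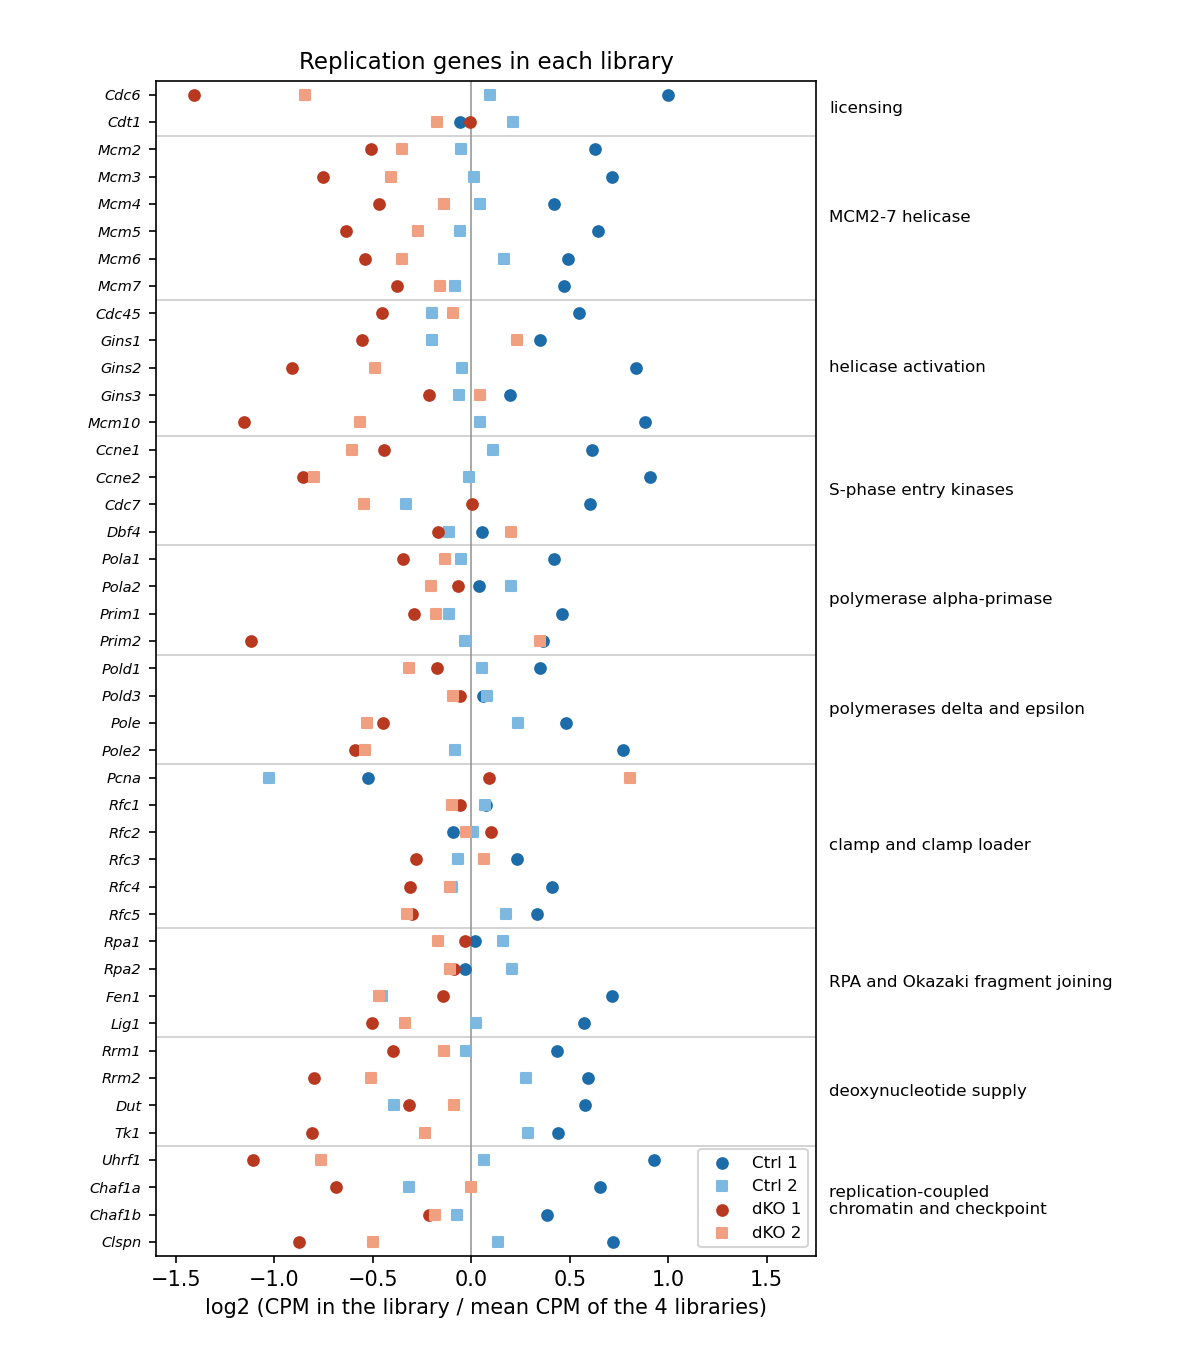
Each row is 1 replication gene and each point is 1 library, placed by the log2 ratio of its CPM to the mean CPM of the 4 libraries. Blue marks Ctrl and red marks dKO, with circles for replicate 1 and squares for replicate 2. Ctrl 1 is the highest library for 35 of the 43 genes, and Pcna is the only gene with both dKO libraries above both Ctrl libraries.

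The call of 0 members depended on the test. DESeq2 called 10 members lower (Cdc6, Uhrf1, Ccne2, Mcm6, Mcm3, Mcm10, Rrm2, Ccne1, Clspn and Mcm2) and Pcna higher, against a background of 2.84%. Without the count filter edgeR called 14, which added Mcm5, Lig1 and Tk1 to those, against a background of 2.40%. The stricter filter of at least 50 counts in 2 libraries left Cdc6 as 1 call, against a background of 1.31%, and limma-voom called 0. Leaving out Ctrl 2 gave 8 calls, all lower, against a background of 1.26%, and the median log2 fold change became -0.73. Leaving out Ctrl 1 gave 0 calls, a median of -0.30 and 35 negative members. The size of the difference therefore turned on which control library was used.

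Promoter sequences of the members were read from RefSeq (GRCm38.p6), because genes of this family share E2F sites and GABP binds Ets sites. Windows of 300 bases, from 250 before a transcription start to 50 after it, were found for 36 of the 43 members, 42 windows in all. Both strands were searched for the Ets letters CCGGAAG, a core of GABP sites, and for the E2F letters TTTCGCGC and TTTGGCGC. The E2F letters were in a window of 11 of the 36 members (30.6%), against 0.929% of the 27025 genes with a window. The Ets letters were in 10 of 36 members (27.8%), against 9.93% of genes. Pola1 and Rfc3 held both. The median log2 fold change was -0.78 over the 11 members with E2F letters and -0.38 over the 10 with Ets letters, with Pola1 and Rfc3 in both. It was -0.48 over the 17 with neither and -0.54 over the 7 with no window. Other spellings of E2F and Ets sites were not searched, so a member with neither may still hold such a site. A match of letters is a description and not a measured site. The 250 bases before the start are shown for 6 members whose matches all lie there, 5′ to 3′ along the gene, with the matched letters in capitals. Printing was limited to 6, members with both kinds of letters first and then those with the smallest edgeR p. Chaf1b, Gins3, Pold3, Prim1, Rfc4, Rfc5 and Rpa2 also had all their matches there, Ets letters only, and are not shown. The log2 fold changes of these unprinted members ran from -0.57 (Rfc5) to -0.15 (Pold3). The sequences show the E2F letters of the helicase genes Mcm6 and Mcm5, each with a pair of overlapping matches on opposite strands and Mcm6 with a further match nearer the start, the single E2F match of Uhrf1, the single Ets match of Mcm10, and both kinds together in Rfc3 and Pola1.
Mcm6: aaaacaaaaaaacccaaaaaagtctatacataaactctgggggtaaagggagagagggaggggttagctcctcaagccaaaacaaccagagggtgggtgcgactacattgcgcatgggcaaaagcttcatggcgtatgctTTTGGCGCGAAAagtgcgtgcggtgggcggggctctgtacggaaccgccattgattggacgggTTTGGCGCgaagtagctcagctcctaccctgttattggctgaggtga
Mcm5: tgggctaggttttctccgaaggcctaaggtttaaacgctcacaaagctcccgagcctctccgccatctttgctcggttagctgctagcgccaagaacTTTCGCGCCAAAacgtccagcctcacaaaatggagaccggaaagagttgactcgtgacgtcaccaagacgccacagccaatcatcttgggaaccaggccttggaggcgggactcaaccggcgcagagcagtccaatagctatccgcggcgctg
Uhrf1: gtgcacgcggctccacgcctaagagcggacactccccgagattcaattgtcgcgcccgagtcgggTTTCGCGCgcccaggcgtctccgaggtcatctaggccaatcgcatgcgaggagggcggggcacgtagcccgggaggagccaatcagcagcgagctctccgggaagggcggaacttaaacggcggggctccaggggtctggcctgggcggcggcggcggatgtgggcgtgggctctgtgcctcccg
Mcm10: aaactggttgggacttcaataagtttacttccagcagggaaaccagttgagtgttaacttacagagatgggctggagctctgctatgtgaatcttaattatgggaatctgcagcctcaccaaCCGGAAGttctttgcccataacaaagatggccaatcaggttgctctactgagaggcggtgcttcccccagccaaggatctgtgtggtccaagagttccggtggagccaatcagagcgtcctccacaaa
Rfc3: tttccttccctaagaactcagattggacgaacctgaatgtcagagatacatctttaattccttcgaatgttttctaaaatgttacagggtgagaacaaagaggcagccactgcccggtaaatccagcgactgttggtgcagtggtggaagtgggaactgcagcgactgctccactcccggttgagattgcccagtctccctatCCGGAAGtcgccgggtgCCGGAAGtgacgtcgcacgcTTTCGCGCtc
Pola1: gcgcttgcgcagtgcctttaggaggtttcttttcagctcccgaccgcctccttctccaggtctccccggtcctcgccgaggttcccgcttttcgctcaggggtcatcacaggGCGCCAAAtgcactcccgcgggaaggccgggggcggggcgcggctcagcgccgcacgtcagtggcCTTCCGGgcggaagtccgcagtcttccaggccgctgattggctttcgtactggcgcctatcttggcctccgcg
Their positions are chr1:128359706-128359955 (minus strand), chr8:75109259-75109508 (plus strand), chr17:56304063-56304312 (plus strand), chr2:5012792-5013041 (minus strand), chr5:151651209-151651458 (minus strand) and chrX:93632156-93632405 (minus strand). The Uhrf1 window belongs to 1 of its 2 annotated starts. Rfc3 carries 2 copies of the Ets letters within 50 bases of the start. It had among the smaller differences, with a log2 fold change of -0.19 (SE 0.23) and overlapping groups.

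Among the licensing genes, Cdc6 had the lowest fold change of all 43 members. Cdc6 is the ATPase that brings the MCM ring to an origin. It was at 66.99 and 35.9 CPM in the controls against 12.7 and 18.7 in the dKO libraries, so both dKO libraries lay under both Ctrl libraries, and Ctrl 1 stood well above Ctrl 2. This is 3.28-fold lower (log2 fold change of -1.71 with SE 0.33 and edgeR adjusted p = 0.0822). Its adjusted p was 0.0487 with the stricter filter and 1.44e-05 with DESeq2. Without Ctrl 1 the log2 fold change was -1.20 (adjusted p = 0.166), and without Ctrl 2 it was -2.09 (adjusted p = 0.00974). Cdt1, which escorts the MCM ring to the origin, was at 80.97 and 97.5 CPM in the controls against 83.8 and 74.8 in the dKO libraries. Its groups overlapped (log2 fold change of -0.17 with SE 0.18 and adjusted p = 0.818).

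Of the 4 S-phase entry kinase genes, 2 had separate groups and none passed. In these 2 both dKO libraries lay below both Ctrl libraries, as in 19.9% of all genes tested. Both cyclin E genes, which encode the activating partners of Cdk2, had separate groups. Ccne2 was at 47.8 and 25.3 CPM in the controls against 14.1 and 14.7 in the dKO libraries (log2 fold change of -1.35 with SE 0.31 and adjusted p = 0.149). Ccne1 was at 47.4 and 33.5 CPM in the controls against 22.8 and 20.4 in the dKO libraries (-0.90 with SE 0.24, adjusted p = 0.200). For both, the dKO libraries lay close together and the Ctrl libraries apart, and without Ctrl 1 Ccne2 had -0.82. Dbf4, the regulatory partner of Cdc7, was at 14.4 and 12.8 CPM in the controls against 12.3 and 15.9 in the dKO libraries, with a log2 fold change of 0.05 (SE 0.26). Cdc7 itself had overlapping groups (log2 fold change -0.45, SE 0.35) and turned to 0.08 without Ctrl 1.

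All 6 subunits of the MCM2-7 helicase were lower in both dKO libraries than in both Ctrl libraries, with log2 fold changes from -0.98 to -0.48 and a median of -0.77. Of these, 5 subunits had an unadjusted edgeR p under 0.05, with Mcm7 outside at 0.0519. Over all genes tested, 19.9% had both dKO libraries below both Ctrl libraries, and 5.34% were lower at an unadjusted p under 0.05. Mcm6 was the subunit with the most RNA per length, at 329 and 283 TPM in Ctrl and 179 and 179 TPM in dKO (TPM also scales by gene length, so it compares genes). On the CPM scale it was at 599.9 and 479 in Ctrl and 294 and 334 in dKO, 1.72-fold lower (log2 fold change of -0.78 with SE 0.17 and adjusted p = 0.119). Mcm3 was at 274 and 169 CPM in the controls against 99.0 and 126 in the dKO libraries (-0.98 with SE 0.25, adjusted p = 0.175). The other 4, Mcm2, Mcm4, Mcm5 and Mcm7, had log2 fold changes of -0.76, -0.54, -0.78 and -0.48. Without Ctrl 1 the 6 values lay between -0.61 and -0.19, with Mcm2 at -0.38, Mcm3 at -0.59, Mcm4 at -0.34, Mcm5 at -0.39 and Mcm7 at -0.19. Without Ctrl 2 they lay between -1.29 and -0.71. In TPM, the summed level of the 6 subunits was 938 and 703 for Ctrl 1 and Ctrl 2, and 478 and 497 for dKO 1 and dKO 2. On this scale the dKO libraries were nearly equal, while Ctrl 1 exceeded Ctrl 2 for every subunit. In CPM the sums were 1777 and 1238 for Ctrl 1 and Ctrl 2, and 820 and 970 for dKO 1 and dKO 2. There dKO 1 was below dKO 2 for every subunit. The proteins assemble as a ring with each subunit once, but their transcripts were unequal, with mean TPM over the 4 libraries from 48.5 (Mcm4) to 243 (Mcm6).

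**Figure D2:**
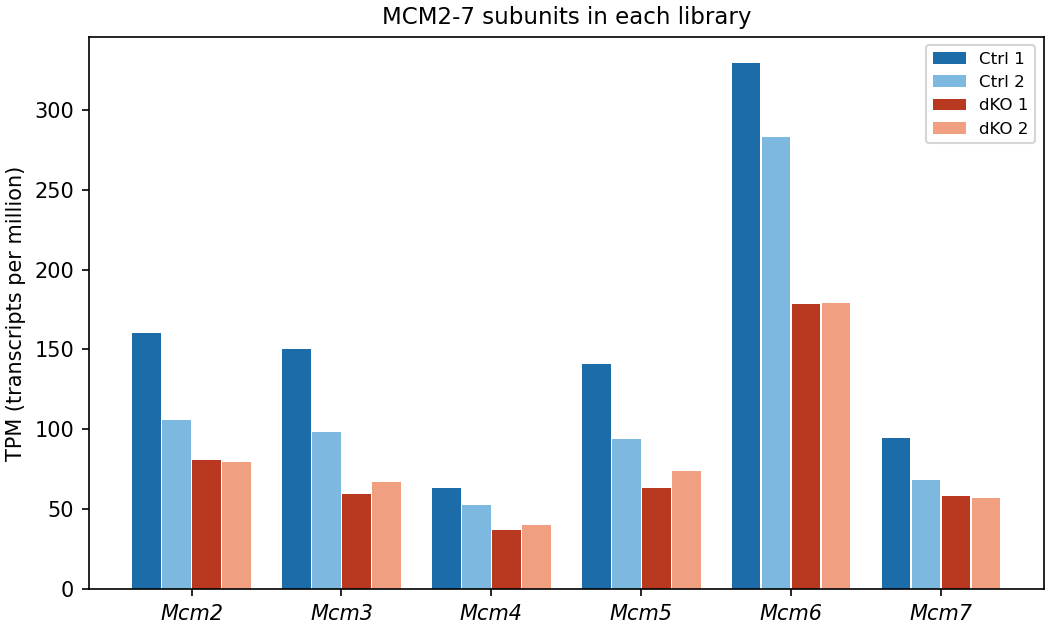
Bars give the TPM of each MCM2-7 subunit in each library (axis from 0), blue for Ctrl and red for dKO. Mcm6 stands above the other subunits in every library, and both dKO bars are shorter than both Ctrl bars for all 6 subunits.

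The genes that turn the loaded ring into a moving helicase were weakly expressed and mixed. Mcm10, which is needed to start unwinding, was at 31.3 and 17.5 CPM in the controls against 7.62 and 11.5 in the dKO libraries, 2.55-fold lower (log2 fold change of -1.35 with SE 0.35 and adjusted p = 0.192). Gins2, a GINS subunit, was at 6.90 and 3.74 CPM in the controls against 2.05 and 2.75 in the dKO libraries (-1.15 with SE 0.45, adjusted p = 0.417). These were the 2 of 5 members in the group whose libraries separated by genotype. Over all genes tested, 19.9% separated in this direction and 21.7% in the other. Without Ctrl 1 their log2 fold changes were -0.87 (Mcm10) and -0.64 (Gins2). Gins1 was at 9.90 and 6.78 CPM in the controls against 5.29 and 9.13 in the dKO libraries, which overlap (-0.21, SE 0.37). Its direction turned without Ctrl 1 (0.086) and without dKO 1 (0.13). Gins3 and Cdc45 also overlapped (-0.15 and -0.48). Cdc45 had the lowest level per length of all members, with a mean of 3.39 TPM and 91 to 193 counts per library and an SE of 0.43.

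Of the 4 genes of the polymerase alpha-primase complex, 3 had separate groups, all lower in dKO, against 19.9% of all genes tested. The differences were small, with log2 fold changes from -0.44 to -0.26 and no unadjusted p under 0.05. Pola1, the catalytic subunit and the only X-linked member, was at 64.2 and 46.4 CPM in the controls against 37.7 and 43.7 in the dKO libraries (-0.44 with SE 0.22, adjusted p = 0.553). Prim1, the primase catalytic subunit, was at 28.4 and 19.1 CPM in the controls against 16.9 and 18.3 in the dKO libraries (-0.43 with SE 0.26, adjusted p = 0.637). For Prim1, Ctrl 2 and dKO 2 were nearly level. Without Ctrl 1 Pola1 had -0.19 and Prim1 -0.12. Pola2, the accessory subunit, had the most RNA per length here (mean 108 TPM) and was at 163 and 182.5 CPM in the controls against 152 and 138 in the dKO libraries (-0.26 with SE 0.16, adjusted p = 0.645). Prim2, the large primase subunit, had uneven dKO libraries at 4.39 and 12.1 CPM, and its direction turned without dKO 1 (0.17).

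The leading and lagging strand polymerases differed by subunit. All 4 members had separate groups, lower in dKO, against 19.9% of all genes tested. In edgeR 3 were lower at an unadjusted p under 0.05, against 5.34% of all genes. Pole, the leading strand catalytic subunit, was at 24.8 and 20.9 CPM in the controls against 13.01 and 12.3 in the dKO libraries (log2 fold change of -0.85 with SE 0.23 and adjusted p = 0.222). Its partner Pole2 was at 12.2 and 6.75 CPM in the controls against 4.76 and 4.93 in the dKO libraries (-0.97 with SE 0.37, adjusted p = 0.409). The delta members had smaller values, with Pold1, the catalytic subunit, at -0.45 (SE 0.18). Pold3, an accessory subunit, was at 89.6 and 90.8 CPM in the controls against 82.6 and 80.4 in the dKO libraries (-0.15 with SE 0.16, adjusted p = 0.826). Pole2 had -0.48 without Ctrl 1. A difference between the epsilon and delta genes was not tested. The further subunits given below, Pole3 and Pole4 for epsilon and Pold2 and Pold4 for delta, did not repeat the larger epsilon values.

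The clamp and clamp loader had the median log2 fold change nearest to 0 of the 10 groups (-0.17), and the loader subunits differed among themselves. Rfc2 had the most RNA per length of all 43 members (mean 349 TPM) and was at 262 and 281 CPM in the controls against 299 and 274 in the dKO libraries (log2 fold change of 0.08 with SE 0.15 and adjusted p = 0.915). Rfc5 was at 47.2 and 42.4 CPM in the controls against 30.3 and 29.9 in the dKO libraries (-0.57 with SE 0.19, adjusted p = 0.322). The large subunit Rfc1 (-0.15), Rfc3 (-0.19) and Rfc4 (-0.39) lay between them. The subunits sit in 1 complex. The value of Rfc2 lay within its SE of 0 and its groups overlapped, so its sign is not settled. Neither Rfc5 nor Rfc2 passed.

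Pcna, the sliding clamp, had the highest fold change of all members in both count tables, but its size differed between them. It was at 16.5 and 11.7 CPM in the controls against 25.3 and 41.6 in the dKO libraries, 2.38-fold higher (log2 fold change of 1.25 with SE 0.30 and edgeR adjusted p = 0.166, and 0.00630 with DESeq2). In the RSEM table it had 127 and 79 expected counts in Ctrl and 104 and 133 in dKO, which overlap. Its TPM from the same table were 14.2 and 9.39 in Ctrl against 18.5 and 19.4 in dKO, which do not overlap. The log2 fold change from the expected counts was 0.35 (SE 0.38, adjusted p = 0.832). Without dKO 2 the fold change from whole-number counts was 0.84 (adjusted p = 0.540). Over the members, a whole-number count was between 1.6 and 2.5 times the RSEM count in every library for 40 of 43 genes. For Pcna the ratio was 4.43 and 4.90 in Ctrl and 7.83 and 9.45 in dKO, higher in both dKO libraries. The deposited rows of its pseudogenes Pcna-ps1 and Pcna-ps2 held 0 counts in every library, and where the additional Pcna reads came from was not tested. At a mean of 15.35 TPM, Pcna stood below all 6 MCM subunits. That TPM comes from the RSEM table, so this rank is subject to the disagreement between the count tables.

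Fen1, the nuclease that trims Okazaki fragments, was nearly absent from the whole-number counts, with 23 and 10 counts in Ctrl and 12 and 9 in dKO. In the RSEM table it had 1501 and 1313 expected counts in Ctrl and 846 and 1034 in dKO, and 82.1, 74.2, 59.0 and 64.8 TPM in the 4 libraries in order. It is thus a well expressed member whose count-based fold change (-0.54, SE 1.05) rests on few counts. With RSEM counts the groups were separate and the log2 fold change was -0.44 (SE 0.20, adjusted p = 0.468). In GENCODE M21 (GRCm38), Fen1 lies on chromosome 19 from 10199132 to 10204169 on the minus strand, and the antisense gene Gm10143 covers part of it from 10198368 to 10202384. Tmem258, also on the plus strand, overlaps Fen1 as well. Whether these overlaps removed the reads from the whole-number counts was not tested. Gins2 was the remaining exception, with ratios of 0.83 to 0.97, and its fold change in the RSEM counts was -0.96 (SE 0.38). Fen1 was picked out after its values were seen.

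**Figure D3:**
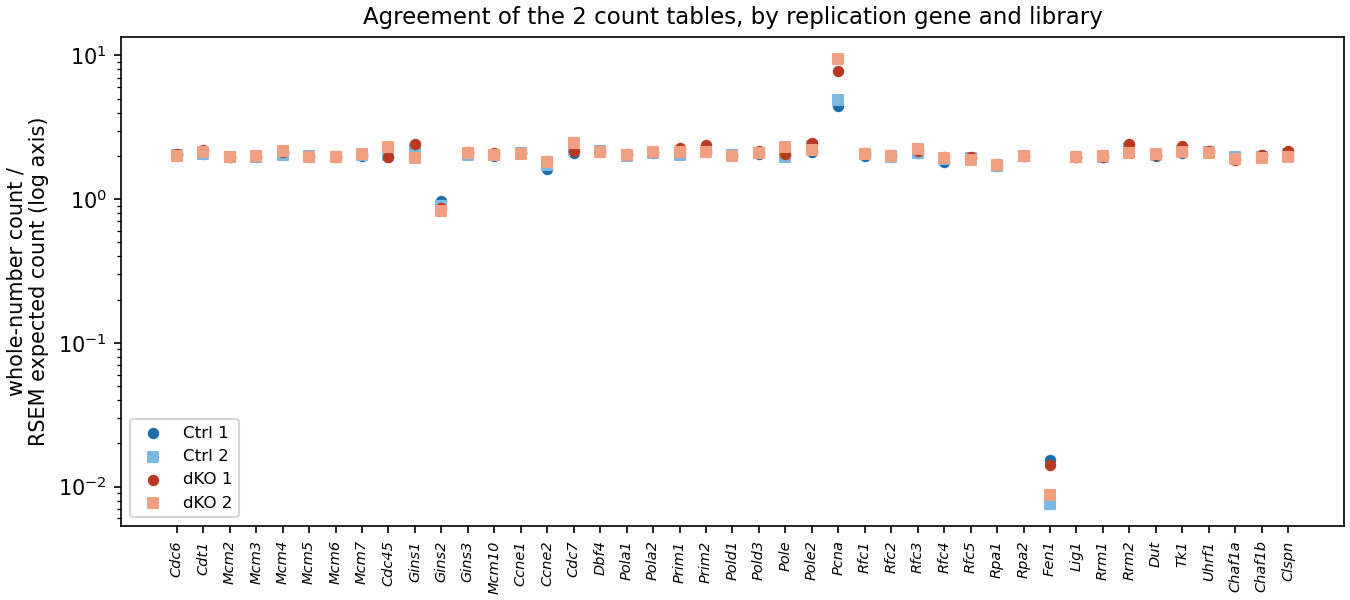
Each point is the whole-number count of a member in 1 library divided by its RSEM expected count, on a log axis. Most genes lie near 2, Pcna lies between 4.43 and 9.45 with the dKO libraries on top, Gins2 lies just under 1, and Fen1 lies at 0.0076 to 0.015.

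Of the other genes for single-stranded DNA and fragment joining, Lig1 differed most. Lig1, the ligase that seals Okazaki fragments, was at 92.4 and 63.2 CPM in the controls against 43.9 and 49.2 in the dKO libraries (log2 fold change of -0.74 with SE 0.22 and edgeR adjusted p = 0.268). Without Ctrl 1 its log2 fold change was -0.44. Rpa1, the large subunit of the single-stranded DNA binding complex RPA, was at 248 and 273 CPM in the controls against 239 and 217 in the dKO libraries (-0.19 with SE 0.15, adjusted p = 0.746). Rpa2 gave the same log2 fold change of -0.19. Both RPA genes were separate by genotype only by a narrow margin.

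Genes of deoxynucleotide supply all had negative fold changes, with a median of -0.67. Rrm2, the S-phase subunit of ribonucleotide reductase, was at 26.2 and 21.1 CPM in the controls against 9.99 and 12.2 in the dKO libraries, 2.13-fold lower (log2 fold change of -1.09 with SE 0.25 and adjusted p = 0.145). Its large partner Rrm1 had -0.48 (SE 0.19), and -0.24 without Ctrl 1. Tk1, the thymidine kinase of S phase, was at 35.3 and 31.8 CPM in the controls against 14.8 and 22.1 in the dKO libraries (-0.86 with SE 0.25, adjusted p = 0.255). Dut, which removes dUTP, was at 95.0 and 48.4 CPM in the controls against 51.1 and 59.8 in the dKO libraries. Its groups overlapped, and its log2 fold change of -0.37 (SE 0.30) became 0.19 without Ctrl 1.

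The genes that act on chromatin and on stalled forks held some of the larger differences. Uhrf1, which recruits the maintenance DNA methyltransferase to new DNA, was at 70.4 and 38.8 CPM in the controls against 17.2 and 21.8 in the dKO libraries, 2.80-fold lower (log2 fold change of -1.49 with SE 0.30 and edgeR adjusted p = 0.0994). Its value was -0.995 without Ctrl 1 and -1.85 without Ctrl 2 (adjusted p = 0.210 and 0.00944). Clspn, which encodes the checkpoint mediator claspin, was at 22.8 and 15.2 CPM in the controls against 7.53 and 9.76 in the dKO libraries (-1.13 with SE 0.30, adjusted p = 0.209). Chaf1b, a subunit of the histone chaperone CAF-1, was at 54.8 and 39.8 CPM in the controls against 36.2 and 36.96 in the dKO libraries (-0.37 with SE 0.22, adjusted p = 0.625). Without Ctrl 1 Chaf1b had -0.13. Its partner Chaf1a had overlapping groups (-0.55, SE 0.36) and stood at 0.01 without Ctrl 1.

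**Figure D4:**
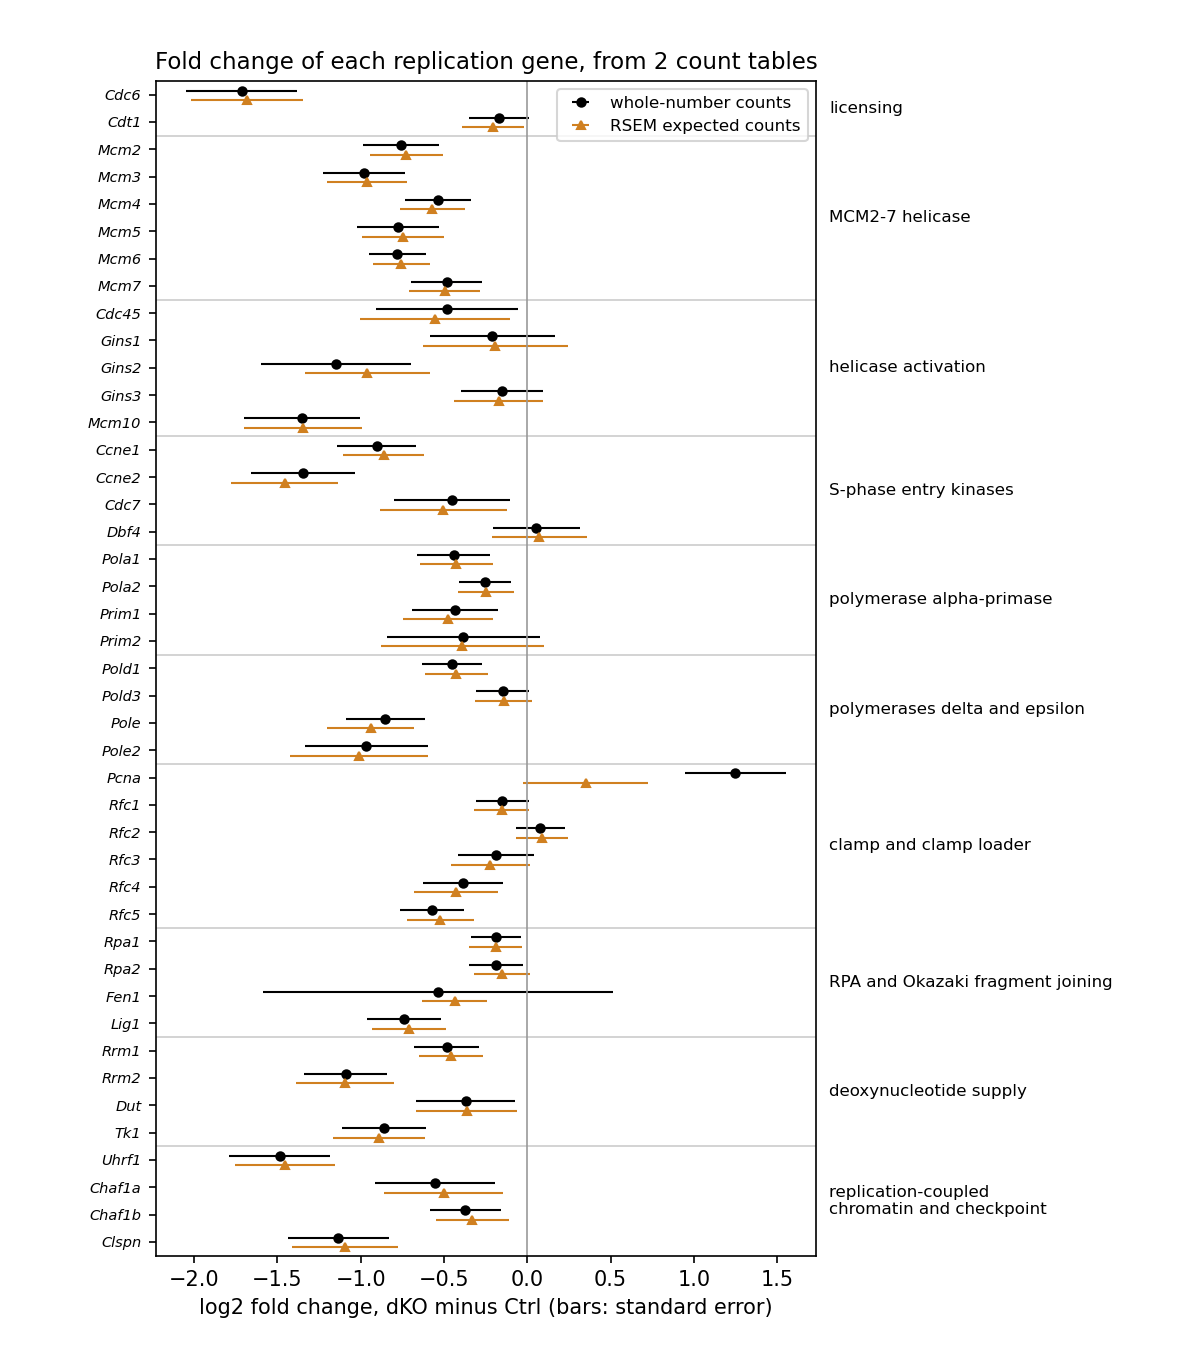
Points give the log2 fold change (dKO minus Ctrl) of each member with its standard error, black circles from whole-number counts and orange triangles from RSEM counts. The 2 tables give nearly the same value for most members, Pcna falls from 1.25 to 0.35, and the error of Fen1 shrinks from 1.05 to 0.20.

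By group, the median log2 fold change ran from -0.94 in licensing (2 genes, Cdc6 and Cdt1, far apart), -0.84 in the chromatin and checkpoint group and -0.77 in the MCM helicase to -0.36 in RPA and Okazaki fragment joining and -0.17 in the clamp and clamp loader. The members at -1.0 or lower were Cdc6, Uhrf1, Mcm10, Ccne2, Gins2, Clspn and Rrm2, 7 in all, against 673 of the 13904 genes tested. These 7 had low levels per length, each with a mean of at most 21.03 TPM. The members with the most RNA per length, Rfc2, Mcm6, Rpa1 and Rpa2 (349, 243, 234 and 158 TPM), had log2 fold changes of 0.08, -0.78, -0.19 and -0.19. In the RSEM counts 40 of 43 members were again negative, with a median of -0.50. These are the same libraries counted another way, not further samples.

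The libraries of a group also differed among themselves. Ctrl 1 exceeded Ctrl 2 in 37 of 43 members, by a median of 0.50 on the log2 scale, where 49.2% of all genes tested were higher in Ctrl 1. In the dKO libraries, dKO 1 was above dKO 2 in 13 of 43 members, with a median difference of -0.21. The order of the summed level was thus Ctrl 1 (4275 CPM), Ctrl 2 (3406), dKO 2 (2841) and dKO 1 (2646). Ctrl 2 was above dKO 2 in 34 of 43 members, by a median of 0.21. The gap between the Ctrl libraries was as large as the median difference between the groups.

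Markers of other marrow cells moved with these values in part. The 5 neutrophil precursor markers (Mpo, Elane, Prtn3, Ctsg and Ms4a3), which mark cells that divide in the marrow, summed to 522 and 162 CPM in the controls against 91.9 and 86.6 in the dKO libraries, and all 5 were higher in Ctrl 1 than in Ctrl 2. The 8 T cell markers summed to 213 and 222 CPM in the controls against 46.9 and 75.9 in the dKO libraries. Of these 8, 2 were called lower (Cd3e and Trac, edgeR), against 0.295% of all genes tested. The sort had removed cells with CD3e on their surface. The 8 B lineage markers summed to 351 and 603 CPM in the controls against 320 and 419 in the dKO libraries. Erythroid markers, also 8, summed to 351 and 515 CPM in the controls against 301 and 472 in the dKO libraries, lower in Ctrl 1 than in Ctrl 2. No marker of these lists was at 0 in any library, and of the 5 early progenitor markers 1 was at 0 in dKO 1. The part of these cells in the differences of the replication genes was not tested.

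**Figure D5:**
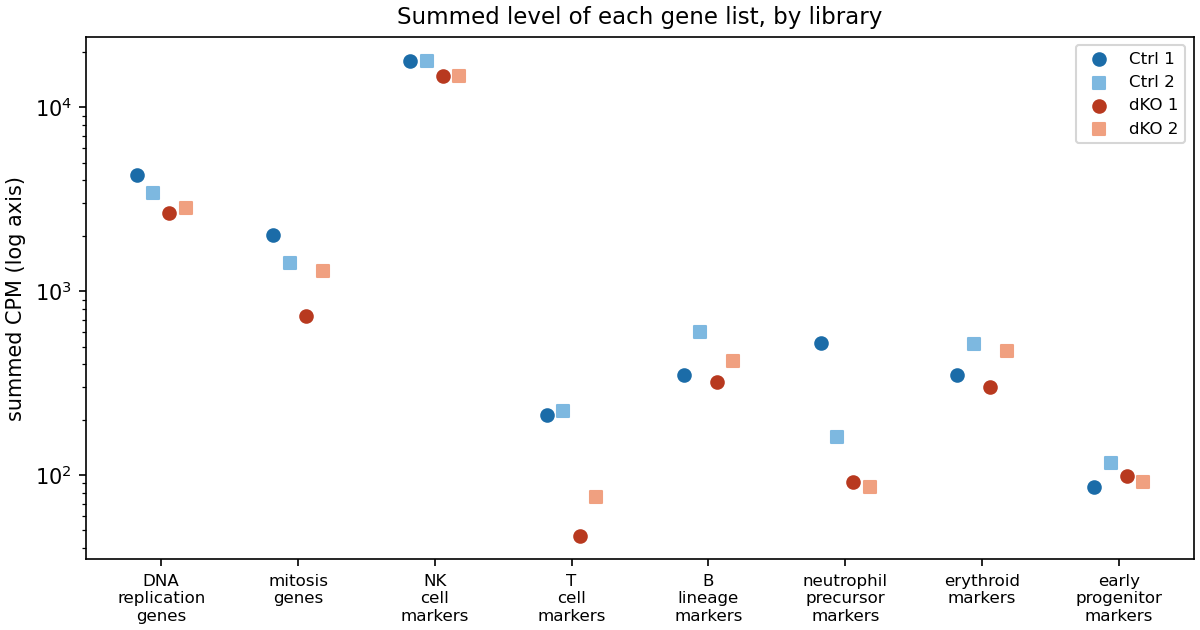
Each point is the summed CPM of a gene list in 1 library, on a log axis, blue for Ctrl and red for dKO. The replication sum runs from 2646 to 4275 CPM, and the neutrophil precursor sum has its highest value, 522 CPM, in the same library, Ctrl 1.

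Of 64 further replication genes, all tested, 1 fell and 0 rose (edgeR), against 0.611% of all genes called. Their median log2 fold change was -0.30, and 50 were negative, against 48.4% of all genes. Both dKO libraries lay below both Ctrl libraries in 28 of them, against 19.9% of all genes. Tyms, the thymidylate synthase gene, was the gene that fell, from 28.3 and 22.0 CPM in Ctrl to 3.33 and 6.55 CPM in dKO (log2 fold change of -2.35 with SE 0.36 and adjusted p = 0.0379), and it was not called without Ctrl 1 or in the RSEM counts. Cdk2, the kinase that cyclin E activates, was at 51.7 and 40.9 CPM in the controls against 20.7 and 19.99 in the dKO libraries (-1.19 with SE 0.21, adjusted p = 0.0618), and it passed in the RSEM counts. The subunits that complete the complexes above are given in full, chosen after their values were seen. Gins4 had a log2 fold change of -0.07 (SE 0.16), Pold2 -0.38 (SE 0.18), Pold4 -0.06 (SE 0.38), Pole3 0.08 (SE 0.19), Pole4 -0.34 (SE 0.18) and Rpa3 -0.28 (SE 0.27). Of the 6 origin recognition genes, Orc2, Orc3, Orc4 and Orc5 lay between -0.20 and 0.14, Orc6 had -0.57 (SE 0.28) and Orc1 had -1.17 (SE 0.46). None of these passed in edgeR. Genes of mitosis, 32 in the list, had a median of -0.79 with 31 negative, against 48.4% of all genes. Among them, 0 were called in edgeR, against 0.611% of all genes. In 19 both dKO libraries lay below both Ctrl libraries, against 19.9% of all genes. Both lay above in 1, against 21.7% of all genes, and 12 overlapped. Ctrl 1 was the highest library for 30 of the 32 and dKO 1 the lowest for 30, with a summed level of 736 CPM in dKO 1 against 1284 CPM in dKO 2. The replication genes were lowest in dKO 1 in 28 of 43.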

How the data were processed

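Read processing was done by the authors. Tools in the submitters' processing notes are TopHat2 2.1.1, HTSeq 0.6.1 and RSEM 1.3.0, given without their roles, and the build is mm9. The sources used here do not give their settings, annotation release or strand use. Each library has a table of gene counts (whole numbers) deposited by the authors, and a second table whose expected counts, TPM and FPKM columns are in the RSEM format per the file headers. The FPKM column that the authors deposited was not used. Gene lengths in other columns entered no test. Reads assigned to no gene or to more than 1 gene (2.20 to 2.34% of counted reads) were kept out of library sizes. Reads assigned to no gene made up 18.1 and 21.5% in Ctrl 1 and Ctrl 2, and 23.8 and 24.3% in dKO 1 and dKO 2. Genes with any count numbered 15921, 18206, 19450 and 19220 in the same order. Both measures were higher in the dKO libraries and lowest in Ctrl 1. Their part in the differences of the replication genes was not tested. Whole-number counts were about 2.05 to 2.07 times the expected counts, so counting error is larger than the counts alone would give.

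Counts were tested in R 4.3.3 with the robust quasi-likelihood test of edgeR 4.0.16, with TMM scaling and a minimum count of 10, which left 13904 genes. P-values were adjusted by Benjamini-Hochberg over all of them, and SE was derived from the F statistic and the fold change. Log2 CPM used a prior count of 2. Alternatives were other scalings and filters, DESeq2 1.42.0, limma-voom 3.58.1, a fit that is not robust, rounded expected counts, a replicate block and leaving out each library. With 2 libraries against 2, an exact permutation test cannot give p below 0.333, and edgeR borrows its spread from all genes. The members, groups and lists were chosen with earlier results of these data known. In each group the 2 members with the smallest p, the member with the highest TPM, and any that passed or had a positive fold change were given library by library. Promoter windows with matches after the start were not printed. Positions are GRCm38, not the build of the counts. Genes that overlap others are uncertain, since strand use is not stated.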

Additional observations from a re-analysis of the deposited data

How the results depend on the processing

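Calls among the 43 replication genes (0) went to 14 with no filter on counts, to 11 in DESeq2 and to 1 under the stricter filter, and ranged from 0 to 8 when 1 library was left out. It stayed at 0 under the other scalings, limma-voom, the fit that is not robust, the RSEM counts and the replicate block. The median log2 fold change of -0.48 ranged from -0.73 to -0.30 with 1 library left out. The further replication genes called (1) became 11 without the filter, 5 with DESeq2 and 2 with the stricter filter, and 0 to 3 with 1 library left out. All genes called (85) became 559, 395 and 148 under the same 3 settings, and 73 to 187 with 1 library left out. Of 351 values of the 27 named members under 13 other settings, 317 kept their direction and side of the threshold, 29 newly passed and 5 turned direction. These were Gins1 without Ctrl 1 (0.086) and without dKO 1 (0.13), Dut without Ctrl 1 (0.19), and Dbf4 without Ctrl 2 (-0.027) and without dKO 2 (-0.14). With 1 library left out, Gins1 ranged from -0.66 to 0.13, Dut from -0.78 to 0.19 and Dbf4 from -0.14 to 0.23. The cause was not tested. Libraries with the same replicate number did not deviate together over all genes (r = -0.054 over 13904 genes). With 2 libraries in each group, this correlation cannot exclude that the numbers pair the samples. With the replicate block 0 members and 100 genes were called. With 1 library left out, the lone library is assumed to vary like the other group.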
